A study of Homo sapiens with 6 samples.

Results

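The ARF and ARL small GTPases and the partner proteins named after them were taken as a family of 24 genes with 75 probe sets, out of 18132 genes with 44988 probe sets of a single symbol. The members were chosen by gene symbol: ARF or ARL with a number, SAR1A, SAR1B, ARFRP1, and symbols starting with ARFGAP, ARFGEF or ARL6IP. The family was picked from results of the SATalpha against GFP contrast that were already known, among them the fall of ARL14. The values of that contrast are therefore given as a description of the members, and an adjusted p below says where a gene stood in the fit over all genes, not that the family is special. Other genes of the family were not analysed here.

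ARPE19, an established human cell line of retinal pigment epithelium, received 2.5 µg per well of a plasmid in 6-well plates. In SATalpha wells the plasmid held GFP joined to satellite alpha, a repeat of human centromeres, and in GFP wells it held GFP without the satellite. Each group had 3 arrays. The labels give neither the share of cells that took up the plasmid nor whether replicate wells were seeded from separate cultures. The p-values therefore refer to the scatter among these wells alone, and that scatter may be technical. Median log2 signals of the arrays ran from 5.29 to 5.32. Across probe sets, which are not independent replicates, arrays of the same group correlated at 0.996 to 0.997 and arrays of different groups at 0.995 to 0.996. Of 13 markers of retinal pigment epithelium, 7 lay above the floor used here, a mean log2 signal of 5.19 below which a gene was not tested. These were KRT8, KRT18, MITF, OTX2 and EZR, with PMEL (5.74) and TYR (5.26) nearer the floor. RPE65, RLBP1, BEST1, TYRP1, LRAT and TTR lay at or below it. KRT8 and KRT18 passed the test below, both lower in SATalpha wells, and their part in the results was not tested. Of 11 markers of photoreceptors, endothelium and leukocytes, 3 lay above the floor, namely CRX (5.58), VWF (5.35) and PECAM1 (5.34). TYR was lower than each of them.

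ARF proteins are GTP-binding switches that sit on membranes in the GTP form and recruit vesicle coats and lipid-modifying enzymes. Exchange factors such as the ARFGEF proteins load them with GTP, and activating proteins such as the ARFGAP proteins end the signal. SAR1 starts the COPII coat that leaves the endoplasmic reticulum, ARF1 starts the COPI coat at the Golgi, and ARL proteins serve the trans-Golgi network, microtubules, lysosomes and cilia.

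Of the 24 genes, 21 had a brightest probe set above the floor and were tested. In SATalpha wells, relative to GFP wells, 5 fell (ARL14, ARF3, ARFGAP2, ARL2 and ARL16), 1 rose (ARL6IP5) and 15 did not pass limma's adjusted p of 0.05. This balance holds for the brightest probe set of each gene. With each gene as the mean of its probe sets 3 members were higher and 2 lower, and among the family's probe sets 7 were higher and 6 lower. The 6 called genes were 28.6% of the tested members. Over all 10879 tested genes, also read by their brightest probe set, 20.8% were called, with 7.72% higher and 13.0% lower. The share of all genes called by the mean of probe sets is not given here. The count of 3 higher and 2 lower therefore has no background beside it. The median log2 difference of the tested members was -0.05, against -0.02 over all tested genes. The groups did not overlap in 7 of the 21 members, and in 37.6% of all tested genes. Leaving out GFP replicate 1 or SATalpha replicate 1 cut the 6 calls to 3. ARL14, ARF3 and ARFGAP2 were called whichever of the 6 arrays was left out. In bulk RNA, less of a transcript per cell and fewer cells that carry it cannot be told apart.

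**Figure D1:**
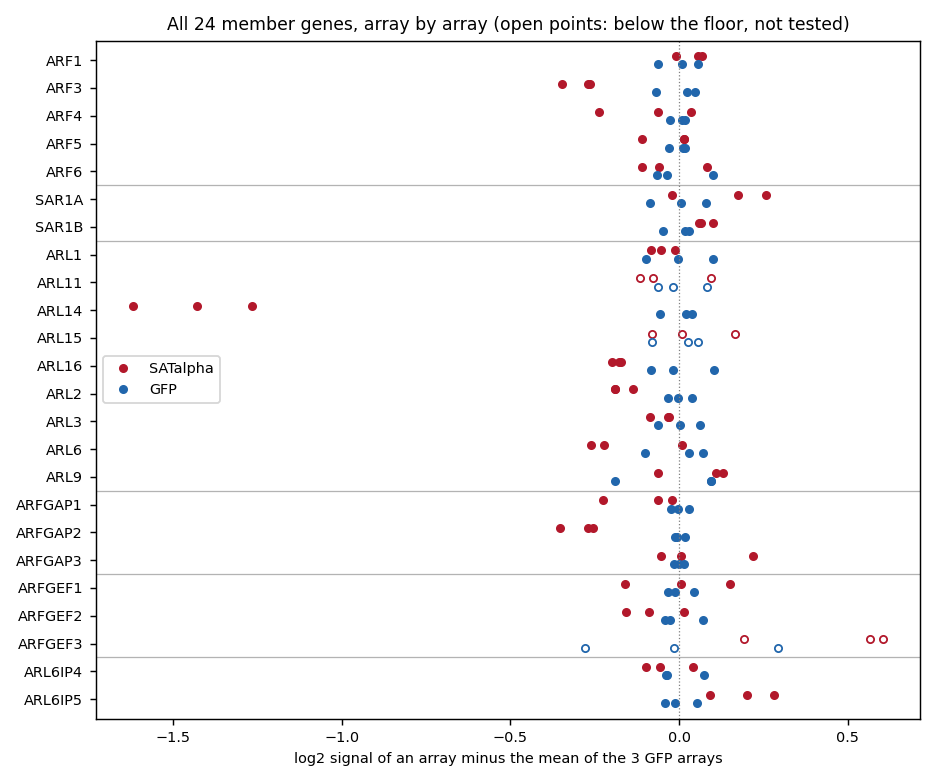
Log2 signal of each array minus the mean of the 3 GFP arrays (horizontal axis) for all 24 member genes, each by its brightest probe set, with SATalpha arrays in red above GFP arrays in blue. Open points mark the 3 genes below the floor. The SATalpha points of ARL14 lie far to the left of every other point, and the other tested members differ by less than 0.3.

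ARL14 carried by far the largest difference. In human dendritic cells this GTPase is known for steering the movement of MHC class II compartments along actin, together with its partner ARL14EP. Its log2 signal was 5.48, 5.29 and 5.64 in the SATalpha arrays, against 6.94, 6.92 and 6.85 in the GFP arrays. Every SATalpha value lay more than 1 log2 unit below every GFP value. The difference was -1.44 (SE 0.09, 95% interval -1.63 to -1.24), which is 2.71-fold lower in SATalpha wells. It was the only member called with a change of at least 1.5-fold, a size reached by 0.818% of all tested genes, and only 1 tested gene had a larger decrease. With an array left out the difference ran from -1.52 to -1.35. Settings that changed only the filter, the variance trend or the choice of probe set could not move this value. ARL14 had 1 probe set, so no other signal of the same gene was at hand, and the SATalpha values were near the floor. ARL14EP, tested among the partner genes, also fell, with 7.73, 7.65 and 7.95 in SATalpha arrays and 8.15, 8.03 and 8.03 in GFP arrays (difference -0.29, limma adjusted p = 0.0120). This call did not hold when GFP replicate 1 or SATalpha replicate 1 was left out (adjusted p up to 0.0772 over all alternatives).

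**Figure D2:**
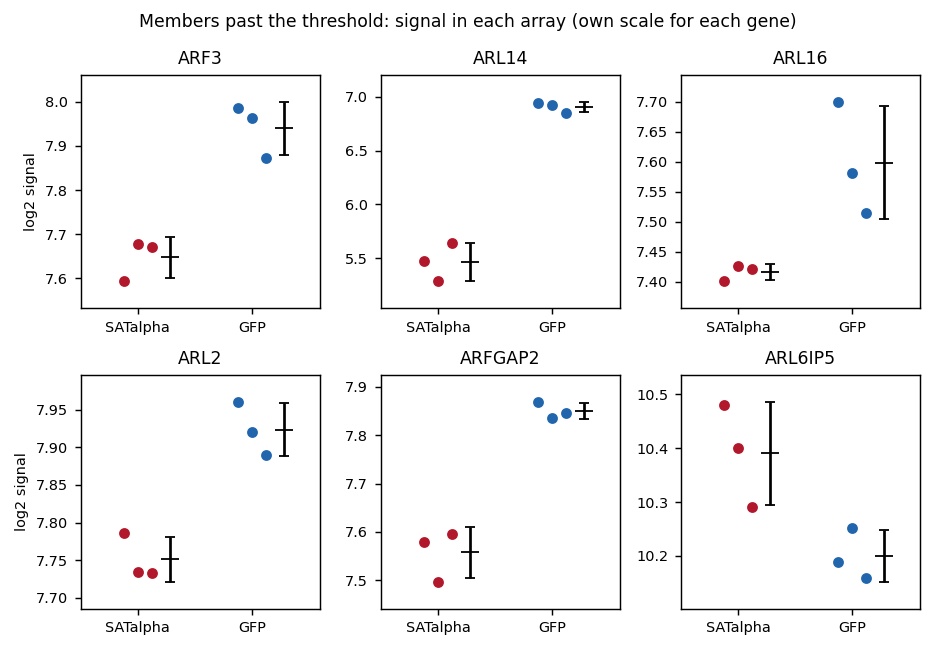
Log2 signal in each of the 3 SATalpha arrays (red) and 3 GFP arrays (blue) for the 6 members past the threshold, with mean and SD (n = 3) in black and an own vertical scale for each gene. The 6 genes were chosen by the test on these same arrays, and the groups do not overlap in any panel. Over all tested genes the groups did not overlap in 37.6%. The gap is over 1 log2 unit for ARL14 and under 0.3 for the others.

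Among the ARF proteins proper, ARF3 alone was called. ARF3 is a close relative of ARF1 that acts at the trans-Golgi network. Its brightest probe set read 7.59, 7.68 and 7.67 in SATalpha arrays and 7.99, 7.96 and 7.87 in GFP arrays, a difference of -0.29 (SE 0.06, limma adjusted p = 0.00239). All SATalpha values lay below all GFP values. The direction rested on which probe set was read. Another ARF3 probe set also fell, by 0.26 (limma adjusted p = 0.0147 over probe sets), but a dimmer one rose by 0.23 (adjusted p = 0.0385), with 7.30, 7.31 and 7.32 in SATalpha arrays and 7.12, 6.96 and 7.17 in GFP arrays. That rise passed in 1 of the 6 fits without an array. The dimmest ARF3 probe set differed by 0.09 and did not pass. As the mean of its 4 probe sets ARF3 differed by -0.06 and was not called (adjusted p = 0.482). Which transcripts each probe set reads was not analysed here.

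ARF1, which recruits the COPI coat and the AP-1 adaptor to the Golgi, had 11.32, 11.31 and 11.25 in SATalpha arrays and 11.26, 11.19 and 11.31 in GFP arrays. The values of the groups overlapped, and the 95% interval of the difference was -0.05 to 0.12. ARF4, a Golgi ARF of the second class, had 11.07, 11.17 and 10.90 in SATalpha arrays and 11.11, 11.15 and 11.14 in GFP arrays. Its difference of -0.09 did not pass (interval -0.20 to 0.03), although it did so without SATalpha replicate 2 (-0.15, adjusted p = 0.0429, with 0.0429 to 0.840 over all settings). ARF5, of the same class, had 8.96, 8.84 and 8.96 in SATalpha arrays and 8.96, 8.92 and 8.96 in GFP arrays (interval -0.13 to 0.08). ARF6, which works at the plasma membrane and on endosomes, had 10.20, 10.34 and 10.15 in SATalpha arrays and 10.19, 10.22 and 10.36 in GFP arrays (interval -0.15 to 0.09). For these 4 genes no probe set passed, and the intervals leave room for differences of at most about 0.2 on the log2 scale in the brightest probe sets.

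SAR1A and SAR1B, which start COPII vesicles, had higher values in SATalpha arrays in every one of their probe sets, yet neither was called by its brightest one. For SAR1A that probe set read 9.90, 9.98 and 9.70 in SATalpha arrays and 9.64, 9.73 and 9.80 in GFP arrays (difference 0.14, limma adjusted p = 0.144). SATalpha replicate 3 lay within the GFP range, and without it the difference was 0.22 and passed (adjusted p = 0.00573). The other SAR1A probe sets rose. The first read 9.51, 9.49 and 9.54 in SATalpha arrays and 9.17, 9.12 and 9.06 in GFP arrays, a difference of 0.40 (limma adjusted p = 8.99e-05 over probe sets). The second read 8.08, 7.89 and 8.14 in SATalpha arrays and 7.77, 7.73 and 7.64 in GFP arrays, a difference of 0.33 (adjusted p = 0.00644). Neither overlapped between groups, and each stayed past the threshold in all 6 fits that left out an array. As the mean of its 3 probe sets SAR1A rose by 0.29 (adjusted p = 0.000184). SAR1B had 9.60, 9.63 and 9.59 in SATalpha arrays and 9.55, 9.49 and 9.56 in GFP arrays. All SATalpha values lay above all GFP values by a small margin, and the difference of 0.08 did not pass (adjusted p = 0.221). Its 3 probe sets differed by 0.08, 0.17 and 0.11, none past the threshold, and as their mean SAR1B rose by 0.12 (adjusted p = 0.0384).

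Of the 9 ARL genes with a probe set, 7 were tested, and 3 fell (42.9%, against 13.0% lower over all tested genes). The fall of ARL14 was already known when the family was picked. Next to ARL14 the genes that fell were ARL2, which binds the tubulin cofactor TBCD and takes part in tubulin folding, and ARL16. ARL2 read 7.79, 7.73 and 7.73 in SATalpha arrays and 7.96, 7.92 and 7.89 in GFP arrays (difference -0.17, SE 0.05, limma adjusted p = 0.0328). The groups did not overlap, but the call was lost in each of the 6 fits without an array (-0.19 to -0.15) and with a replicate block (adjusted p = 0.0842). A probe set listed for both ARL2 and the read-through gene ARL2-SNX15, outside the family by its symbol, differed by -0.06 and did not pass. ARL16 read 7.40, 7.43 and 7.42 in SATalpha arrays and 7.70, 7.58 and 7.51 in GFP arrays (difference -0.18, SE 0.06, adjusted p = 0.0486). It passed in 1 of the 6 fits without an array, was lost with a replicate block (adjusted p = 0.109), and did not pass among probe sets (adjusted p = 0.0660).

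The other tested ARL genes did not pass. ARL1, which brings golgins to the trans-Golgi network, had 8 probe sets with differences from -0.09 to -0.03, all below 0. A pair of them carried identical values in all 6 arrays. ARL3, which releases lipid-modified proteins in cilia, differed by -0.05 (interval -0.15 to 0.05). ARL6, the Bardet-Biedl protein that recruits the BBSome, had 6.04, 5.99 and 6.27 in SATalpha arrays and 6.33, 6.29 and 6.16 in GFP arrays (difference -0.16, adjusted p = 0.229). SATalpha replicate 3 lay inside the GFP range, and the other ARL6 probe sets differed by -0.21 to 0.04. ARL9 differed by 0.06 (interval -0.16 to 0.28), the widest interval of the tested members. ARL11 and ARL15 lay below the floor, with mean levels of 2.61 in SATalpha and 2.65 in GFP arrays for ARL11, and 4.60 and 4.57 for ARL15.

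Among the regulators, ARFGAP2 fell. It is a GTPase activating protein that binds coatomer and acts in the COPI cycle. Its brightest probe set read 7.58, 7.50 and 7.60 in SATalpha arrays and 7.87, 7.84 and 7.84 in GFP arrays, a difference of -0.29 (SE 0.05, limma adjusted p = 0.00198). The groups were clearly apart, and the GFP arrays lay close together (SD 0.02, n = 3). The dimmer ARFGAP2 probe sets above the floor differed by 0.02 and -0.31, and neither passed (adjusted p = 0.957 and 0.124). Averaged over its probe sets ARFGAP2 differed by -0.12 and was not called (adjusted p = 0.343). That average includes a probe set below the floor for probe sets (mean level 3.92), which differed by 0.10. ARFGAP3, which shares this role, differed by 0.06 (interval -0.08 to 0.19) and its other probe set by 0.16. ARFGAP1, the activating protein that senses membrane curvature, differed by -0.10 (interval -0.26 to 0.05), and its 5 probe sets ran from -0.21 to 0.19.

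The exchange factors showed no call. ARFGEF1 and ARFGEF2 load class I ARF proteins at the trans-Golgi network and are inhibited by brefeldin A. ARFGEF1 averaged 7.90 ± 0.16 in SATalpha and 7.90 ± 0.04 in GFP arrays (SD, n = 3), and ARFGEF2 averaged 9.04 ± 0.09 and 9.12 ± 0.06. Their intervals were -0.15 to 0.15 and -0.19 to 0.04. ARFGEF3 lay below the floor, with 3.66, 4.03 and 4.07 in SATalpha arrays and 3.19, 3.76 and 3.45 in GFP arrays. These values overlapped, and with no filter on low genes its difference of 0.45 did not pass (adjusted p = 0.0622).

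ARL6IP5, also called JWA, is a membrane protein of the endoplasmic reticulum whose rodent form binds the glutamate transporter EAAC1. It was the only called member that rose, with 10.48, 10.40 and 10.29 in SATalpha arrays and 10.19, 10.25 and 10.16 in GFP arrays (difference 0.19, SE 0.05, limma adjusted p = 0.0135). The groups did not overlap in any of its 4 probe sets, and their differences were 0.19, 0.13, 0.30 and 0.25. Of these, 3 passed over probe sets, and the largest passed in all 6 fits without an array. The gene's own call was lost without GFP replicate 1 or 3 or SATalpha replicate 1 (0.18, 0.17 and 0.15) and without a mean-variance trend (adjusted p = 0.0657). ARL6IP4, a regulator of splicing, had 8 probe sets whose brightest differed by -0.04 and did not pass. A dimmer one fell by 0.16 (adjusted p = 0.0179) and the dimmest rose by 0.30 (adjusted p = 0.0396). The remaining 5 differed by -0.15, -0.11, -0.11, -0.02 and 0.12, none past the threshold. The ARL6IP4 signal thus had no common direction across its probe sets.

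Read as probe sets, 65 of the 75 lay above the floor for probe sets, a mean of 4.61, and were tested. Of these, 7 were higher, 6 were lower and 52 did not pass, so that 20.0% were called. Over all 29576 tested probe sets 15.8% were called, with 7.84% higher and 7.97% lower. Probe sets of a gene share their source and are not replicates. Of the 17 member genes with at least 2 tested probe sets, 11 had all differences on one side of 0 and 6 had them on both sides. In 2 genes, ARF3 and ARL6IP4, a probe set passed in each direction.

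**Figure D3:**
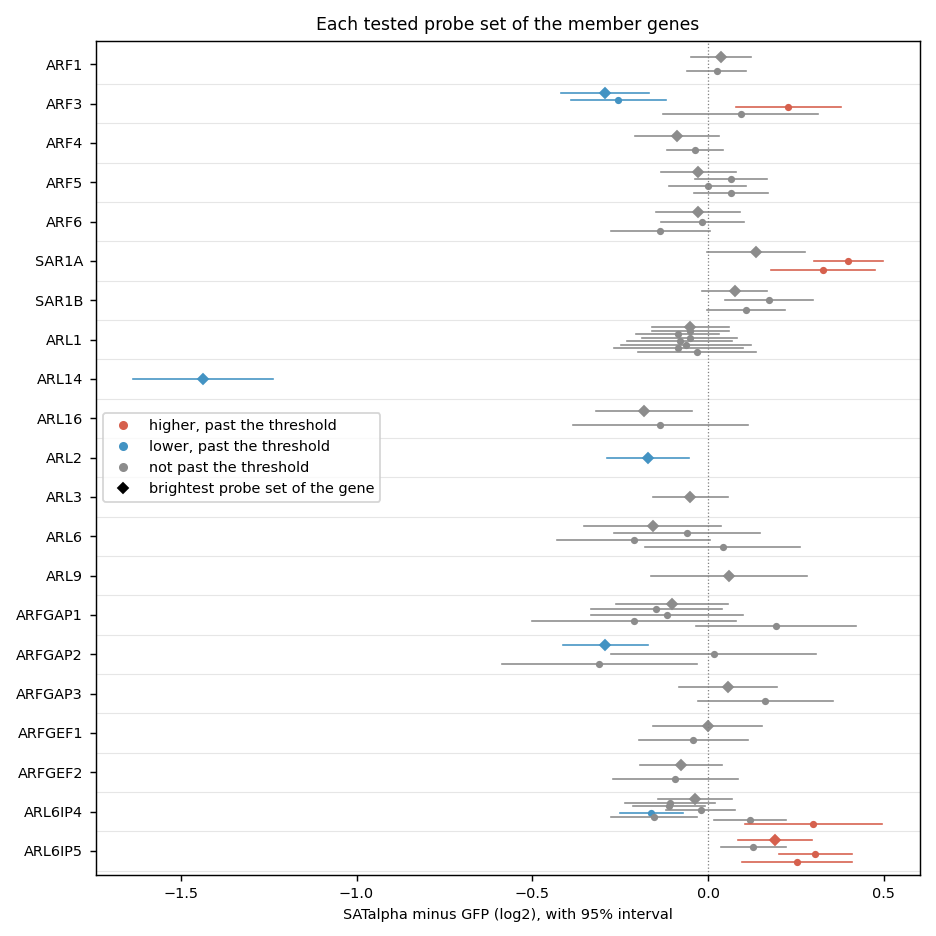
SATalpha minus GFP difference on the log2 scale (horizontal axis) of the 65 tested probe sets, grouped by gene, with lines for the 95% interval. Diamonds mark the brightest probe set of a gene, and colour marks higher, lower and not past the threshold. The 4 ARL6IP5 and 3 SAR1A probe sets lie right of 0 and the 8 of ARL1 left of it, while ARF3 and ARL6IP4 have probe sets on both sides.

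Upstream sequence is shown for the 4 members whose changes were seen in a probe set that held in every fit without an array and that had a single start in the RefSeq promoter table (GRCh38.p14), which had entries for 20 of the 24 genes. ARF3 and ARFGAP2 fell by their brightest probe set. ARL6IP5 and SAR1A each had at least 2 probe sets that rose. Each sequence is the 250 bases before the gene's start, 5′ to 3′ on the gene's strand, with matches in capitals. ARF3 lies at chr12:48957488-48957737 on the minus strand, ARFGAP2 at chr11:47176880-47177129 on the minus strand, ARL6IP5 at chr3:69084687-69084936 on the plus strand and SAR1A at chr10:70170515-70170764 on the minus strand.
ARF3: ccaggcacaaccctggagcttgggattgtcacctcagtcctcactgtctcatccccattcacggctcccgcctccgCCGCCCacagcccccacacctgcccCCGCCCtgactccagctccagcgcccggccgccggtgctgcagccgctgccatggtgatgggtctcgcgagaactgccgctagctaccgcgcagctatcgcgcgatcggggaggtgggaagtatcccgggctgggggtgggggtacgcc
ARFGAP2: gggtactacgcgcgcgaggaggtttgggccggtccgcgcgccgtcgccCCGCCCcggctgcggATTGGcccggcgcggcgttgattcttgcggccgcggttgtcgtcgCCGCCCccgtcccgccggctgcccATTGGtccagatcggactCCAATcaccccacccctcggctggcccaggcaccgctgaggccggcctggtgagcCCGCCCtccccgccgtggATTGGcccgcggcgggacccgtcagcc
ARL6IP5: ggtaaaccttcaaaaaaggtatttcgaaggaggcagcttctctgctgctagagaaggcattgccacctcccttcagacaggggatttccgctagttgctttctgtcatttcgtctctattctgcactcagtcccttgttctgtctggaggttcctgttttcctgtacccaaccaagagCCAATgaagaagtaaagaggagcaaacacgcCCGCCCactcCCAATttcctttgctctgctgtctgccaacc
SAR1A: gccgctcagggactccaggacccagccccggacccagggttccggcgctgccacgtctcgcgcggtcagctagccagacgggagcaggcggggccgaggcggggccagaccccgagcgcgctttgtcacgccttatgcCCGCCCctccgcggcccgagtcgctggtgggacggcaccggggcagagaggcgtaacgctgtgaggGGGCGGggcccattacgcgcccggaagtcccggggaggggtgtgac

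The capitals mark the GC box (GGGCGG) or the CCAAT box (CCAAT), on either strand. ARF3 had 2 matches of the first and 0 of the second, and SAR1A likewise had 2 and 0. ARFGAP2 had 3 and 4, and ARL6IP5 had 1 and 2. A TATA box (TATAAA), an E-box (CACGTG) and a cyclic AMP response element (TGACGTCA) were searched too and did not occur in these 4 windows. Over 35116 windows of the same length and position in the table, 42.6% held the GC box, 32.0% the CCAAT box, 10.7% the TATA box, 6.34% the E-box and 1.65% the cyclic AMP response element. Of the 20 member genes with an entry, 18 had a GC box and 10 a CCAAT box in at least 1 window. A TATA box occurred in 2 of them, an E-box in 2 and the cyclic AMP response element in 0. These counts are by gene, over all its windows, while the shares above are by window, so they cannot be compared directly. Base content differed among the sequences, with 49.6% G and C for ARL6IP5, against 69.6% for ARF3, 74.8% for SAR1A and 76.4% for ARFGAP2.

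Genes that work with these GTPases were read from lists by role, which were drawn up with earlier results of the series known. They named 118 genes, of which 100 were tested. In SATalpha wells 4 rose, 14 fell and 82 did not pass, so that 18.0% were called, against 20.8% of all tested genes. Their median difference was -0.07. Of the 18 called genes, 5 were called whichever array was left out. These were TTC8, CYTH1, COPA, AGFG1 and AP3D1, while the other 13 lost the call in at least 1 of the 6 fits.

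Other exchange factors had 2 higher and 1 lower gene of 11 tested, with a median of -0.06. CYTH1, a cytohesin that loads ARF proteins at the plasma membrane, rose to 6.77, 6.60 and 6.94 in SATalpha arrays, against 6.27, 6.26 and 6.40 in GFP arrays (difference 0.46, limma adjusted p = 0.00213). As the mean of its probe sets CYTH1 rose by 0.24 (adjusted p = 0.0310). PSD, an exchange factor for ARF6, rose by 0.36 (adjusted p = 0.0247), whereas CYTH3 fell by 0.19 (adjusted p = 0.0142). Other GTPase activating proteins had 0 higher and 4 lower of 21 tested, with a median of -0.10. AGFG1, which has an ARFGAP domain and repeats like those of nuclear pore proteins, fell to 8.57, 8.74 and 8.50 in SATalpha arrays, against 8.82, 8.85 and 8.92 in GFP arrays (difference -0.26, adjusted p = 0.00830). SMAP2, which acts with clathrin at the trans-Golgi network, fell by 0.30, AGAP5 by 0.26 and the ARF6 activating protein ARAP2 by 0.25. As the mean of its probe sets SMAP2 differed by -0.21 and did not pass (adjusted p = 0.0757).

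Effectors and partners had 0 higher and 3 lower of 23 tested, with a median of -0.10. Besides ARL14EP these were PLEKHM2, which links lysosomal ARL8 to kinesin (-0.18, limma adjusted p = 0.0137), and the ciliary protein CIMAP3 (-0.32, adjusted p = 0.0298). COPI coat subunits had 1 higher and 1 lower of 9 tested, with a median of 0.04. COPA rose to 9.12, 9.08 and 9.16 in SATalpha arrays, against 8.95, 8.93 and 8.94 in GFP arrays (difference 0.18, adjusted p = 0.00959), and COPZ2, an isoform of the zeta subunit, fell by 0.18 (adjusted p = 0.0370). None of the 12 tested COPII genes passed. The cargo adaptor SEC24A differed by -0.18 (adjusted p = 0.0910) and MIA3, which exports collagen, by 0.09 (adjusted p = 0.334).

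Adaptor subunits had 0 higher and 4 lower of 17 tested, with a median of -0.07. AP3D1, the large delta subunit of AP-3, fell to 9.73, 9.68 and 9.72 in SATalpha arrays, against 9.95, 9.99 and 9.88 in GFP arrays (difference -0.23, limma adjusted p = 0.00175), and by 0.15 as the mean of its probe sets (adjusted p = 0.0119). The AP-1 subunits AP1S2, AP1G1 and AP1B1 fell by 0.18, 0.19 and 0.18. As the mean of their probe sets they differed by -0.03, -0.00041 and -0.13, none past the threshold (adjusted p = 0.798, 0.997 and 0.221). Subunits of the BBSome, the cilium coat that ARL6 recruits, had 1 higher and 1 lower of 7 tested, with a median of -0.18. TTC8 fell to 8.17, 8.24 and 8.22 in SATalpha arrays, against 8.66, 8.58 and 8.72 in GFP arrays (difference -0.44, adjusted p = 6.03e-05). BBS5 read 5.60, 5.26 and 5.43 in SATalpha arrays and 5.12, 5.08 and 5.10 in GFP arrays (difference 0.33, adjusted p = 0.0334). Its GFP values all lay below the floor of 5.19, so BBS5 was tested only through its higher SATalpha values.

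**Figure D4:**
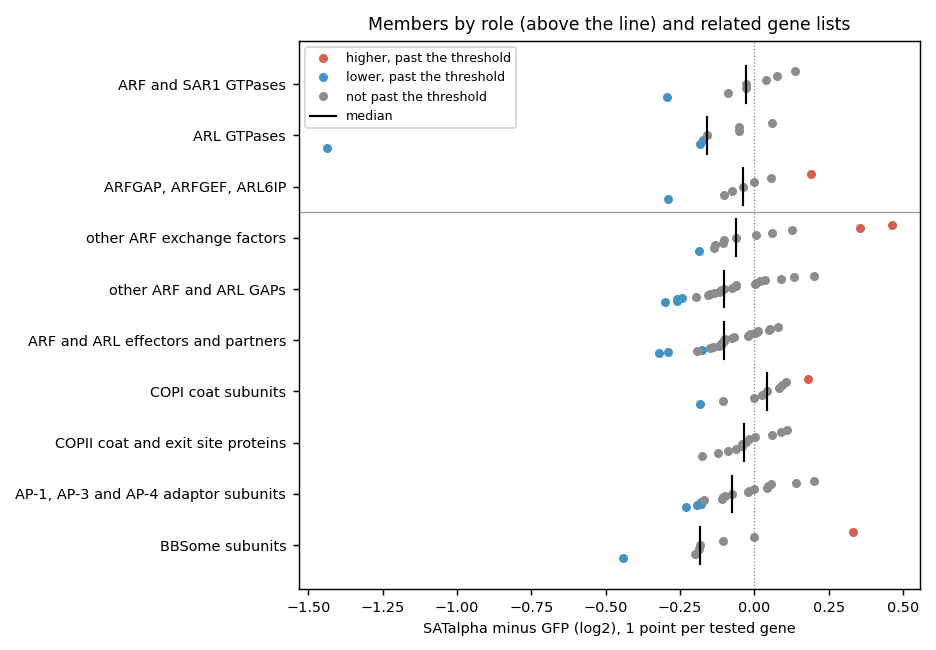
SATalpha minus GFP difference on the log2 scale (horizontal axis) of each tested gene, for the members by role above the line and for the related lists under it, with colour for the call and a black line for the median. ARL14 stands alone at -1.44. All other points lie between -0.44 and 0.46.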

How the data were processed

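Total RNA of 3 SATalpha and 3 GFP wells was hybridized to Affymetrix 3′ expression arrays, per the labels' protocols. The deposited log2 values had been normalized between arrays by the authors. Per the submitters' processing notes MAS5 and RMA were used, without saying which made these values, and their versions are not stated in any source used here. No scan date is given, so batch was not checked.

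Of 49372 probe sets, 79 were controls, 1832 had several symbols and 2473 were not in the platform annotation, and these gave no gene. A gene was read by its brightest probe set, and genes in the lowest 40% by mean signal were not tested. SATalpha minus GFP was fitted in R 4.3.3 by limma 3.58.1, using lmFit and then eBayes, whose prior variance followed the mean. P-values were adjusted by Benjamini and Hochberg's method across the 10879 tested genes, or the 29576 tested probe sets, with a threshold of 0.05. SE and intervals are limma's moderated ones. The fit was also run on simulated data, and no result of that run is given here. A gene that did not pass is not thereby shown to be unchanged. No detection call was at hand, and the number of arrays limits the precision (median SE 0.06).

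Every tested member is named, with arrays listed for called members, ARF proteins and SAR1. Of each related list, up to 4 called genes, or 2 values where none passed, are named by smallest p. Members and lists were chosen with earlier results of these data known. Alternatives covered filters, normalization, probe sets, variance trend, the replicate block and each array left out. A protein comparison that had been planned was not run, since no protein sequences were used here.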

Additional observations from a re-analysis of the deposited data

How the results depend on the processing

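The family count of 6 called genes was 4 to 6 under the 8 alternatives that kept all arrays, and 3 to 5 with an array left out. Read as the mean of all probe sets, 3 members were higher and 2 lower, against 1 and 5 in the fit reported. The counts were also 3 and 2 without probe sets ending in _s_at or _x_at, but over fewer members. There ARF3, ARL2 and ARL16, each lower in the fit reported, had no probe set above the floor and were not tested. The same held for ARF1 and ARF4. The share of all genes called as the mean of probe sets, or without these endings, is not given here. The counts of 3 and 2 therefore have no background beside them. The family probe set count of 13 was 7 without a mean-variance trend, 8 with the replicate block and 6 to 15 with an array left out. The count over the related lists, 18, was 10 with the replicate block and 8 to 27 with an array left out. The count over all tested genes, 2259, was 1300 with the replicate block, 1216 without GFP replicate 1 and 1396 without SATalpha replicate 1. The family median stayed below 0 throughout (-0.07 to -0.04), and so did the median of all tested genes (-0.031 to -0.0075). Over members and related genes named, 462 values kept direction and call, 75 lost the call, 7 gained it and 12 turned sign. None of the 12 was past the threshold after turning. The 462 include values of genes that were uncalled before and after. Settings that changed only the filter, the variance trend or the replicate block could not turn a sign. Of the called genes, 3 of 6 members and 5 of 18 related genes kept the call whichever array was left out. Of the genes called, AP1S2 turned, to 0.011 without probe sets ending in _s_at or _x_at. The other 11 turns were of 7 genes that were not called. SEC24A was 0.052 in that same setting. As the mean of all probe sets ARF5 was 0.025 and ARL3 0.018. ARFGEF1 was 0.0048 with quantile normalization. With an array left out ARFGEF1 ran from -0.078 to 0.077, ARF5 from -0.049 to 0.013, ARF6 from -0.085 to 0.021, ARL9 from -0.035 to 0.12 and ARFGAP3 from -0.025 to 0.11. Correlations of deviations between same-numbered arrays were -0.0035, -0.24 and -0.29. With 3 arrays per group the deviations are tied to each other, so these values cannot decide whether arrays were paired. The labels give replicate numbers alone, so the replicate block does not reflect a known pairing. The causes of these shifts were not tested, and fewer arrays by themselves give less power.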
